A study of Mus musculus with 8 samples.

Results

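Naive and resting CD4 T cells express a set of genes that recede when the cells are activated and differentiate. This account covers 9 of them, taken from a list of gene symbols: Il7r, Tcf7, Lef1, Klf2, S1pr1, Bach2, Satb1, Foxo1 and Igfbp4. The probe annotation of the array gave probe sets of their own to 8 of the 9 genes, 24 probe sets in all, out of 18193 genes and 45037 probe sets measured. Tcf7 was not analysed here. The genes were picked by symbol, with earlier results of these data known. No filter on dim signal was used, and all 24 probe sets entered the fit.

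The samples were CD4 T cells of C57BL/6 mice, sorted as naive cells, stimulated with antibodies to CD3 and CD28 and cultured under Th17-polarising conditions for 48 h. The 4 groups, with 2 arrays each, were RORγt-deficient cells with digoxin, RORγt-deficient cells with DMSO, wildtype cells with digoxin, and wildtype cells with DMSO. RORγt is the nuclear receptor that directs Th17 differentiation, digoxin is a heart drug from foxglove that blocks the sodium-potassium pump, and DMSO is the solvent given to controls. All 4 groups were stimulated Th17 cultures, so none is a resting or naive sample. The dose of digoxin, the allele behind the deficiency and the number of animals are not given in the sources used here, and the gene encoding RORγt was not checked. The titles call the arrays biological replicates without saying that they came from different animals or cultures. The p-values therefore reflect array-to-array spread, some of which could be technical.

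As background, FOXO1 is held outside the nucleus while the antigen receptor and growth factor pathways signal, and it returns there in resting cells. In T cells FOXO1 drives Il7r, which encodes the receptor chain for the survival cytokine interleukin 7, and Klf2. The zinc finger factor KLF2 in turn drives S1pr1, the receptor that lets lymphocytes leave lymphoid organs. TCF1 (Tcf7) and LEF1 are related factors of early and naive T cells, BACH2 represses effector genes, SATB1 organises chromatin in thymocytes, and IGFBP4 is a secreted protein that binds insulin-like growth factors.

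The start regions of Igfbp4, Il7r and Klf2 are shown because all probe sets of these genes stood above both wildtype DMSO arrays on every array of the other groups. Each window runs 300 bases, 5′ to 3′ on the strand of the gene, and comes from RefSeq on GRCm38.p6. Capitals mark CACCC or its reverse complement, the letters bound by Krüppel-like factors. The Igfbp4 window is chr11:99040994-99041293 (plus strand, 71.3% G and C), the Il7r window is chr15:9529827-9530126 (minus strand, 45.7%), and the Klf2 window is chr8:72318812-72319111 (plus strand, 69.3%).
Igfbp4: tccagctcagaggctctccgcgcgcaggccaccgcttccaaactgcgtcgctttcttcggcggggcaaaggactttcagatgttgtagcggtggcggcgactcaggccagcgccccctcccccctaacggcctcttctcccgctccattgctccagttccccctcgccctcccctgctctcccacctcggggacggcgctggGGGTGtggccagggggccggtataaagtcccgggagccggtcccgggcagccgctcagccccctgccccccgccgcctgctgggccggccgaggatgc
Il7r: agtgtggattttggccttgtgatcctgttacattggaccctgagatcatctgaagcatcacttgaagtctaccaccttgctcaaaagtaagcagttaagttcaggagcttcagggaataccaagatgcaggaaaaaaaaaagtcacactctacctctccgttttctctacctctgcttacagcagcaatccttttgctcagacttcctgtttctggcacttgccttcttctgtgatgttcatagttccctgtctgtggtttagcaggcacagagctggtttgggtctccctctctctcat
Klf2: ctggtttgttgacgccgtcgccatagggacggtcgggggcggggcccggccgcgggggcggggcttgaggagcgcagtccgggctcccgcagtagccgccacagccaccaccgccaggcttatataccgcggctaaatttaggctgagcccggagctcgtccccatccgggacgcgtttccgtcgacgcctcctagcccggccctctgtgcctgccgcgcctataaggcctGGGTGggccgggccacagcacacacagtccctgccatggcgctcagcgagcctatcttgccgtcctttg
The set of windows used here held 16 for 8 of the 9 genes, Tcf7 among them and S1pr1 not. CACCC, read on both strands, was in windows of Igfbp4, Klf2, Lef1, Satb1 and Tcf7, and 57.5% of all 32851 windows hold it. AGGTCA, the core of sites bound by ROR receptors, was in windows of Satb1 and Tcf7 (16.3% of all windows). TGTTTAC, a FOXO motif, was in a window of Tcf7 (3.65%), and CTTTGA, a TCF and LEF motif, was in windows of Bach2 and Lef1 (16%). Bases shared by motifs count for each of them. A match is a description of letters, not of binding.

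Values below are log2 expression minus the mean of the wildtype DMSO arrays for the same probe set, which is how the deposited table is centred. A value of 1 would be a doubling, no absolute level is left, and levels of different genes cannot be ranked. The precision of the deposited numbers still shows a range for the lowest array before centring, on the log2 scale. That range was 8 or above for 19 of the 24 probe sets, 4 to 8 for 5 and below 4 for 0. The SD of the difference between the 2 arrays of a group, over all probe sets, lay between 0.19 in wildtype DMSO cells and 0.24 in wildtype digoxin cells. Cells were measured in bulk, so more cells of a type and more RNA per cell cannot be told apart.

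Of the 8 measured genes, Igfbp4 alone had a probe set that passed the test, and it was higher in RORγt-deficient cells. Averaged over the 24 probe sets, the arrays stood at 0.30 and 0.30 in RORγt-deficient cells with digoxin, 0.29 and 0.29 in RORγt-deficient cells with DMSO, 0.21 and 0.14 in wildtype cells with digoxin, and -0.02 and 0.02 in wildtype cells with DMSO. The 3 groups that lacked RORγt, received digoxin or both thus lay above the wildtype DMSO arrays.

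**Figure D1:**
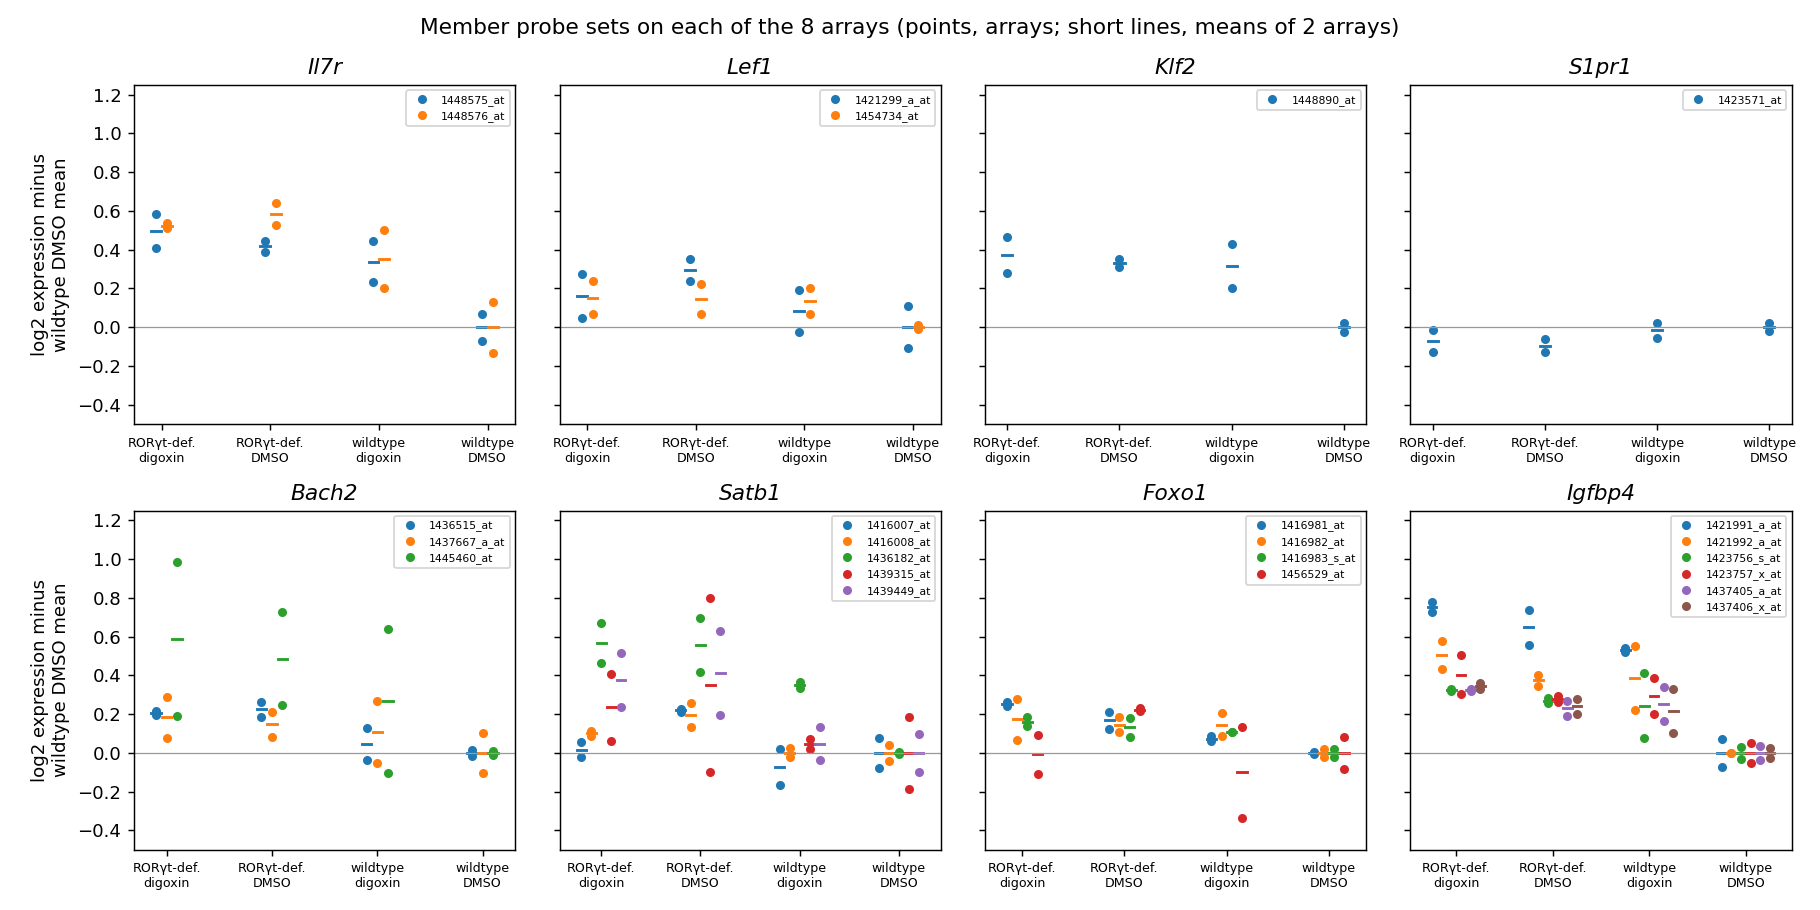
Log2 expression minus the wildtype DMSO mean (vertical axis) for each of the 24 probe sets, in a panel per gene, with the 4 groups along the horizontal axis. Points are single arrays and short lines are means of 2 arrays. The first Igfbp4 probe set (1421991_a_at) lies between 0.52 and 0.78 on the 6 arrays outside wildtype DMSO, and S1pr1 lies between -0.13 and 0.02 on all 8 arrays.

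Among the receptors, Il7r was higher in every group than in wildtype DMSO cells, without passing the test. The Il7r probe set 1448576_at stood at 0.51 and 0.54 in RORγt-deficient cells with digoxin, 0.64 and 0.53 in RORγt-deficient cells with DMSO, 0.50 and 0.20 in wildtype cells with digoxin, and -0.13 and 0.13 in wildtype cells with DMSO. The Il7r probe set 1448575_at stood at 0.59 and 0.41 in RORγt-deficient cells with digoxin, 0.45 and 0.39 in RORγt-deficient cells with DMSO, 0.44 and 0.23 in wildtype cells with digoxin, and -0.07 and 0.07 in wildtype cells with DMSO. On both Il7r probe sets the wildtype DMSO arrays were the lowest 2 of the 8 and did not overlap any other group. The RORγt-deficient DMSO cells differed from the wildtype DMSO cells by 0.58 ± 0.14 and 0.42 ± 0.12 (SE, 2 arrays a group; limma adjusted p = 0.132 and 0.265).

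S1pr1 was the receptor with no such rise. Its probe set 1423571_at stood at -0.01 and -0.13 in RORγt-deficient cells with digoxin, -0.13 and -0.06 in RORγt-deficient cells with DMSO, 0.02 and -0.05 in wildtype cells with digoxin, and 0.02 and -0.02 in wildtype cells with DMSO. Both RORγt-deficient DMSO arrays lay below both wildtype DMSO arrays. The difference between RORγt-deficient and wildtype cells in DMSO was -0.10 ± 0.11, with a 95% interval from -0.33 to 0.14 (limma adjusted p = 0.842). Digoxin moved S1pr1 in wildtype cells by -0.02, with an interval from -0.25 to 0.22.

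Klf2, the factor upstream of S1pr1, stood at 0.28 and 0.46 in RORγt-deficient cells with digoxin, 0.31 and 0.35 in RORγt-deficient cells with DMSO, 0.20 and 0.43 in wildtype cells with digoxin, and -0.02 and 0.02 in wildtype cells with DMSO. All 6 Klf2 values outside wildtype DMSO were above both wildtype DMSO arrays, and the other 3 groups overlapped each other. The Klf2 difference was 0.33 ± 0.12 for RORγt-deficient against wildtype cells in DMSO (adjusted p = 0.419) and 0.31 ± 0.12 for digoxin against DMSO in wildtype cells (adjusted p = 0.746), so neither passed the test.

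Satb1, the chromatin organiser, had 5 probe sets that disagreed in size. The Satb1 probe set 1436182_at stood at 0.67 and 0.47 in RORγt-deficient cells with digoxin, 0.70 and 0.42 in RORγt-deficient cells with DMSO, 0.37 and 0.33 in wildtype cells with digoxin, and 0.00 on both arrays of wildtype cells with DMSO. Here the groups without RORγt lay above wildtype digoxin, which lay above wildtype DMSO. The Satb1 probe set 1416007_at showed less, with -0.02 and 0.05 in RORγt-deficient cells with digoxin, 0.21 and 0.23 in RORγt-deficient cells with DMSO, 0.02 and -0.17 in wildtype cells with digoxin, and -0.08 and 0.08 in wildtype cells with DMSO. Over the 5 probe sets the difference between RORγt-deficient and wildtype cells in DMSO ran between 0.20 and 0.56, with the lowest adjusted p at 0.121. Under digoxin in wildtype cells it ran between -0.07 and 0.35.

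The remaining factors, Lef1, Foxo1 and Bach2, did not pass the test in any comparison. Lef1, measured by 1421299_a_at, stood at 0.27 and 0.05 in RORγt-deficient cells with digoxin, 0.24 and 0.35 in RORγt-deficient cells with DMSO, -0.03 and 0.19 in wildtype cells with digoxin, and -0.11 and 0.11 in wildtype cells with DMSO. Only the RORγt-deficient DMSO arrays of this Lef1 probe set stood clear of both wildtype DMSO arrays, by 0.30 ± 0.13 on average (adjusted p = 0.557). By the other Lef1 probe set, 1454734_at, that difference was 0.14 ± 0.12 (adjusted p = 0.772), and all 6 arrays outside wildtype DMSO lay above both wildtype DMSO arrays, the lowest at 0.07. Foxo1, measured by 1416981_at, stood at 0.26 and 0.24 in RORγt-deficient cells with digoxin, 0.12 and 0.21 in RORγt-deficient cells with DMSO, 0.06 and 0.09 in wildtype cells with digoxin, and 0.00 on both arrays of wildtype cells with DMSO. The 4 Foxo1 probe sets differed by 0.13 to 0.22 between RORγt-deficient and wildtype cells in DMSO and by -0.10 to 0.15 between digoxin and DMSO in wildtype cells. Bach2, the repressor of effector genes, differed over 3 probe sets by 0.15 to 0.49 between the genotypes in DMSO and by 0.04 to 0.27 under digoxin in wildtype cells. The Bach2 probe set 1445460_at differed widely within groups, with 0.19 and 0.99 in RORγt-deficient cells with digoxin, 0.25 and 0.73 in RORγt-deficient cells with DMSO, -0.11 and 0.64 in wildtype cells with digoxin, and -0.01 and 0.01 in wildtype cells with DMSO. The array numbered 2 was the high one in all 3 groups outside wildtype DMSO, and the SE of a difference was 0.29.

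Igfbp4, the secreted binding protein, had 6 probe sets, all higher in both RORγt-deficient groups and in wildtype cells with digoxin than in wildtype cells with DMSO. The Igfbp4 probe set 1421991_a_at stood at 0.73 and 0.78 in RORγt-deficient cells with digoxin, 0.56 and 0.74 in RORγt-deficient cells with DMSO, 0.54 and 0.52 in wildtype cells with digoxin, and -0.07 and 0.07 in wildtype cells with DMSO. The order of the group means was RORγt-deficient with digoxin, RORγt-deficient with DMSO, wildtype with digoxin and wildtype with DMSO, and the arrays of the first and second group overlapped. Those of the second and the third did not overlap, and that difference was not tested. The Igfbp4 probe sets share targets in pairs, since the annotation ties 1421991_a_at to the same record as 1421992_a_at, 1423756_s_at to that of 1423757_x_at, and 1437405_a_at to that of 1437406_x_at. They are not independent readings, and the last 4 showed smaller differences than 1421991_a_at.

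In the comparison of RORγt-deficient with wildtype cells, both in DMSO, Igfbp4 rose 1.57-fold by 1421991_a_at, a log2 difference of 0.65 ± 0.11 (95% interval 0.40 to 0.90; limma adjusted p = 0.0373). The other 5 Igfbp4 probe sets differed by 0.23 to 0.37 and did not pass (adjusted p from 0.379 to 0.586). The call was lost without any 1 array of RORγt-deficient cells with digoxin, RORγt-deficient cells with DMSO or wildtype cells with DMSO (adjusted p up to 0.327), and held without either wildtype digoxin array. With the 6 probe sets averaged, the difference was 0.34 (adjusted p = 0.174).

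That was 1 of 24 probe sets called, against 0.611% of all 45037. At an unadjusted p under 0.05, 8 of the 24 differed, all higher and all of Il7r, Klf2, Satb1 or Igfbp4. That count was 4 without the first wildtype DMSO array, and 5 without the second one, without the second RORγt-deficient DMSO array or after quantile normalization. Over the whole array 9.06% passed that mark in either direction and 3.9% passed it as higher. The log2 difference was above 0 for 23 of 24 probe sets, S1pr1 being the exception, against 52.2% of all. Both RORγt-deficient arrays lay above both wildtype arrays for 21 of 24, against 20.2% of all. The median difference was 0.26 for the 24 probe sets and 0.01 for all. Probe sets of the same gene are not independent readings, and Igfbp4, Satb1 and Foxo1 hold 6, 5 and 4 of the 24. With 1 probe set a gene, 7 of 8 were above 0, with a median of 0.22. Of those 8, 3 had an unadjusted p under 0.05 by limma.

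**Figure D2:**
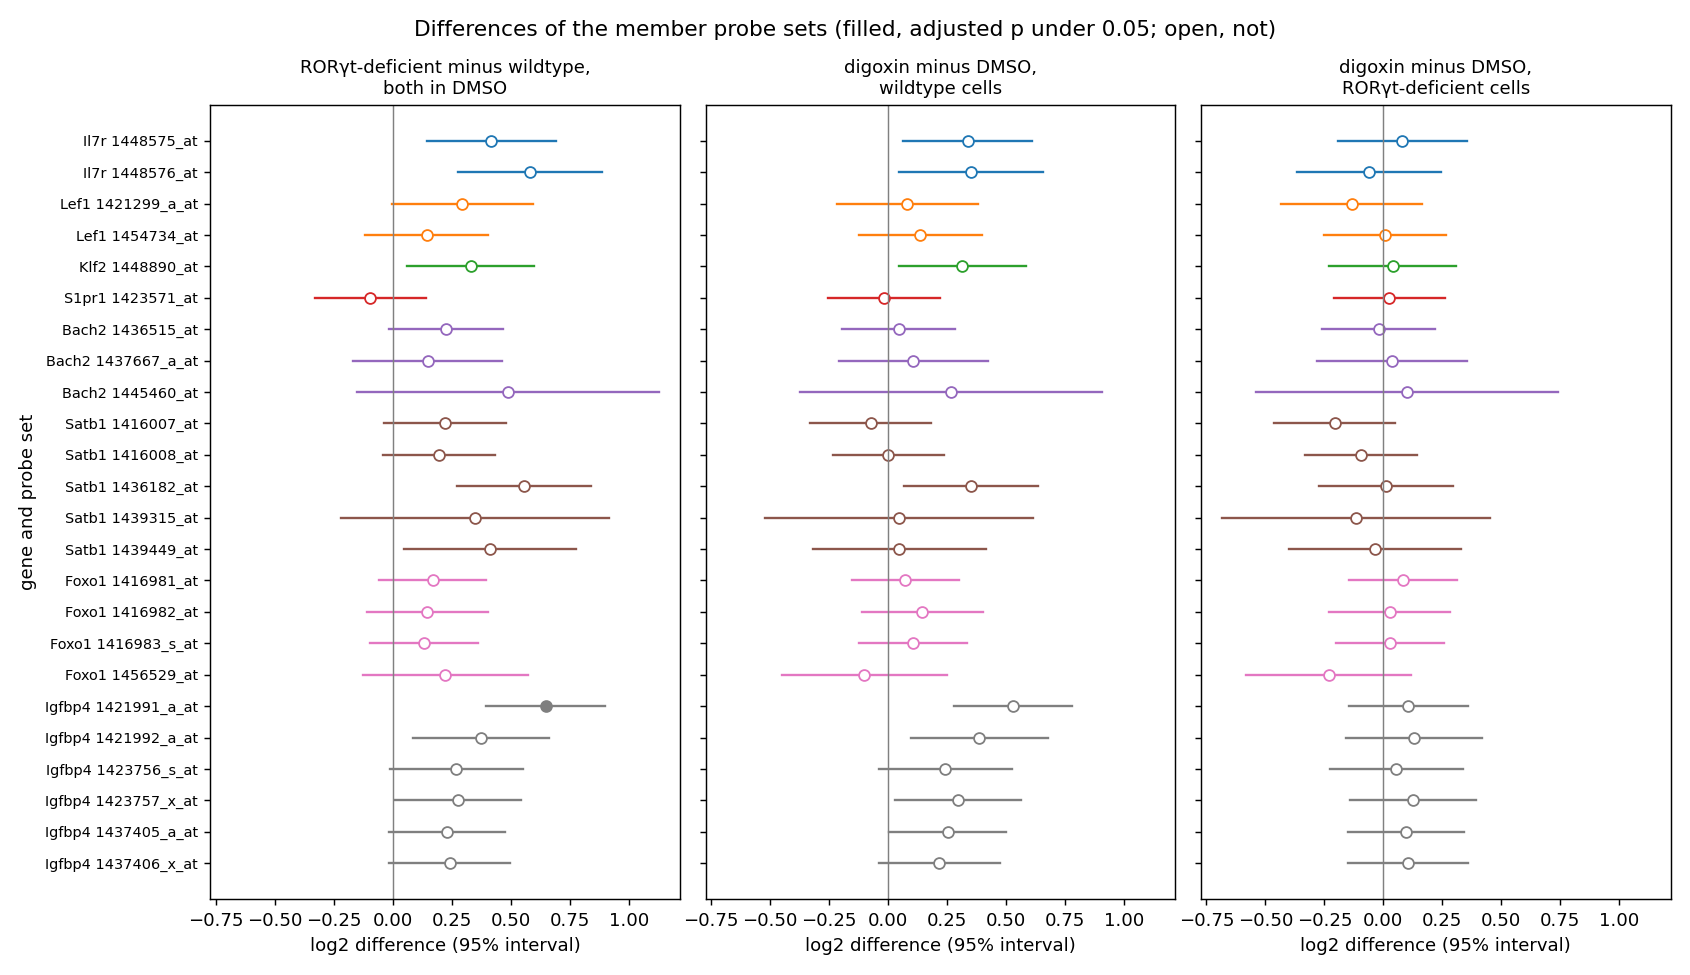
Log2 difference (horizontal axis) with its 95% interval for each of the 24 probe sets, listed down the page by gene. The panels show RORγt-deficient minus wildtype cells in DMSO, digoxin minus DMSO in wildtype cells, and digoxin minus DMSO in RORγt-deficient cells. The filled point is Igfbp4 1421991_a_at at 0.65, and open points did not pass the adjusted p of 0.05.

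Digoxin in wildtype cells was compared with DMSO to follow the same genes when RORγt is present. Igfbp4 again had the largest difference among the 24, 0.53 ± 0.11 by 1421991_a_at (95% interval 0.28 to 0.78; unadjusted p = 0.000882, adjusted p = 0.259), and its other probe sets lay between 0.22 and 0.39. Il7r differed by 0.34 ± 0.12 and 0.35 ± 0.14 (adjusted p = 0.711 and 0.751), and Satb1 1436182_at by 0.35 ± 0.13 (adjusted p = 0.713). By limma 0 of 24 probe sets were called, against 0.0622% of all, while 8 had an unadjusted p under 0.05, again all higher. That count was 1 without the first wildtype DMSO array, and 3 without the second one, without the first wildtype digoxin array or after quantile normalization. Over the whole array 6.26% reached that mark in either direction and 3.17% as higher.

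The direction was shared by most of the 24 under digoxin in wildtype cells, with 21 above 0 (52.6% of all) and 14 with both digoxin arrays above both DMSO arrays (18.7% of all). The median was 0.14 for the 24 and 0.01 for all. Taking 1 probe set a gene, 6 of 8 were above 0, with a median of 0.11. This comparison and the previous one share the wildtype DMSO arrays, so their likeness is not independent. A low value on those arrays raises both differences.

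**Figure D3:**
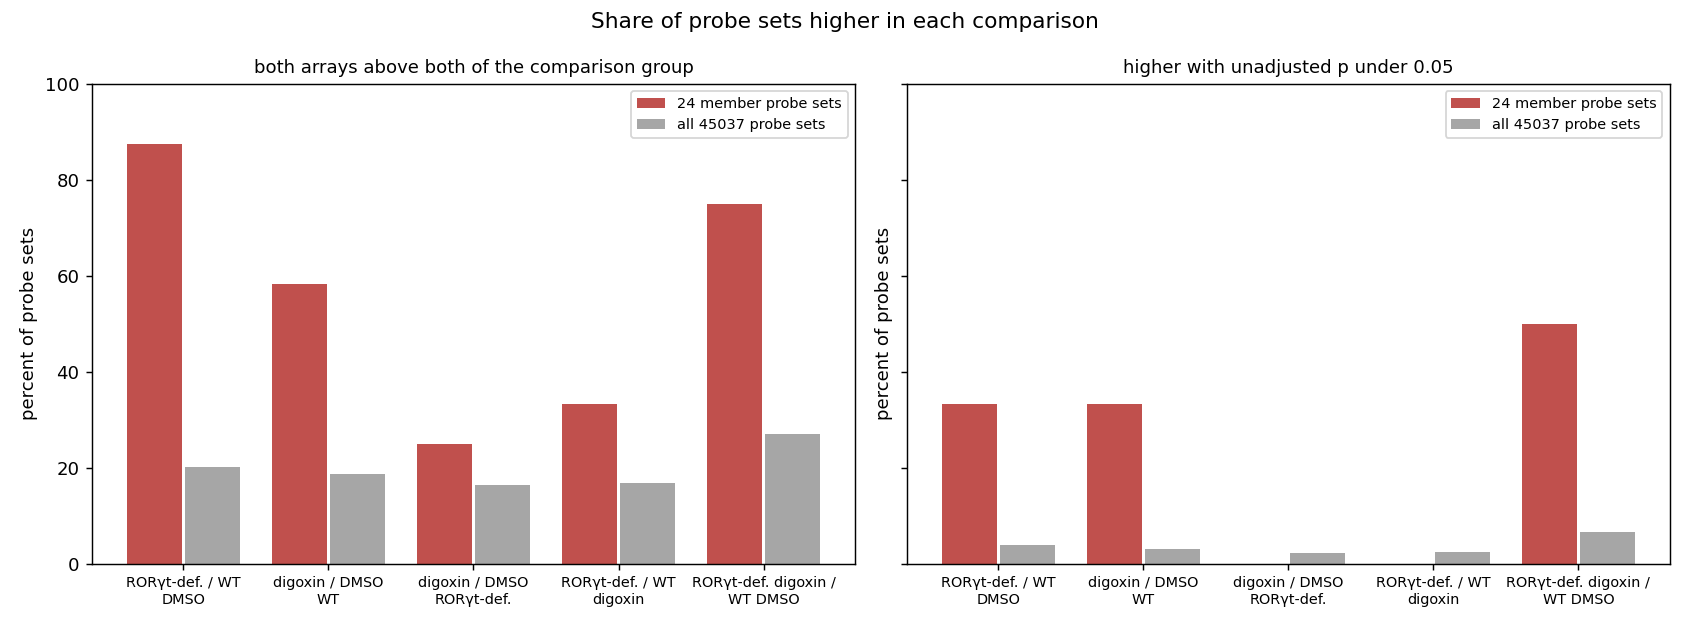
Percent of probe sets (vertical axis, 0 to 100) that were higher, for the 24 probe sets of the naive and resting T cell genes and for all 45037, in 5 comparisons. The left panel counts probe sets whose 2 arrays both lay above both arrays of the comparison group (21 of 24 and 20.2% of all for RORγt-deficient against wildtype cells in DMSO), and the right panel counts those higher at an unadjusted p under 0.05.

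Digoxin in RORγt-deficient cells was set against DMSO in the same genotype, and no member probe set passed the test. Igfbp4 1421991_a_at differed by 0.11 ± 0.11 (95% interval -0.15 to 0.36), Il7r 1448576_at by -0.06 (interval -0.37 to 0.24), Klf2 by 0.04 (interval -0.23 to 0.31) and Satb1 1436182_at by 0.01 (interval -0.27 to 0.29). All adjusted p were 1. By limma 0 of 24 were called, against 0.00222% of all, and 0 of 24 had an unadjusted p under 0.05, against 3.41% in either direction and 2.16% as higher. The difference was above 0 for 16 of 24 (54% of all), or 6 of 8 with 1 probe set a gene. Both digoxin arrays lay above both DMSO arrays for 6 of 24, of Foxo1 and Igfbp4 (16.5% of all). Both lay below for Foxo1 1456529_at (-0.23, interval -0.58 to 0.12), Satb1 1416007_at (-0.21, interval -0.46 to 0.05) and Satb1 1416008_at (-0.10).

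The difference between the digoxin effects, RORγt-deficient minus wildtype, tested whether the genotypes responded differently. Igfbp4 1421991_a_at gave -0.42 ± 0.16 (95% interval -0.78 to -0.07; unadjusted p = 0.0243, adjusted p = 1), Il7r 1448576_at gave -0.41 ± 0.19 (interval -0.84 to 0.02), and Satb1 1436182_at gave -0.34 ± 0.18 (interval -0.74 to 0.06). Of the 24 probe sets 22 were below 0 and 2, of S1pr1 and Foxo1, were above 0, against 51.8% above 0 over all. Taking 1 probe set a gene, 2 of 8 were above 0. The wildtype DMSO arrays enter this difference as well, and a low value on them pushes it down. The count below 0 is therefore not independent of the rises described above. By limma 0 of 24 were called, against 0% of all, and 1 had an unadjusted p under 0.05, against 2.78%. So the responses of the genotypes to digoxin were not separated by the test, at intervals this wide.

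With digoxin in both genotypes, RORγt-deficient cells stood slightly above wildtype cells. Igfbp4 1421991_a_at differed by 0.22 ± 0.11 (95% interval -0.03 to 0.48), Il7r by 0.16 and 0.17, Klf2 by 0.06 and S1pr1 by -0.05, with all adjusted p at 1. By limma 0 of 24 were called, against 0.00222% of all, and 0 had an unadjusted p under 0.05, against 4.77% in either direction and 2.4% as higher. Still, 23 of 24 differences were above 0 (52.2% of all) and 8 had arrays that did not overlap (16.8% of all), with a median of 0.10 against 0.01 for all. Without the second wildtype digoxin array 16 were above 0 and the median was 0.05, and without the first one 19 were above 0 and the median was 0.19. After quantile normalization the median was 0.05. Taking 1 probe set a gene, 7 of 8 were above 0.

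RORγt-deficient cells with digoxin, set against wildtype cells with DMSO, gave the second called value. Igfbp4 1421991_a_at rose 1.69-fold, by 0.75 ± 0.11 on the log2 scale (95% interval 0.50 to 1.01; adjusted p = 0.0167), and the call was lost without any 1 array of either compared group (adjusted p up to 0.164). With the 6 Igfbp4 probe sets averaged the difference was 0.44 (adjusted p = 0.0544). Il7r differed by 0.50 and 0.52 (adjusted p = 0.110 and 0.132), Satb1 1436182_at by 0.57 ± 0.13 (adjusted p = 0.0795) and Klf2 by 0.37 (adjusted p = 0.222).

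By limma 1 of 24 was called in that comparison, against 0.941% of all. At an unadjusted p under 0.05, 12 were higher, against 6.64% of all higher and 13.9% in either direction. That count was 7 without the second wildtype DMSO array and 5 after quantile normalization. The difference was above 0 for 22 of 24 (56% of all), and 18 had arrays that did not overlap (27% of all). Taking 1 probe set a gene, 7 of 8 were above 0. The wildtype DMSO arrays enter this comparison too.

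The genes whose 8 array values were nearest to those of Igfbp4 1421991_a_at were sought among 18192 genes by the root mean square difference. Il12rb2, a chain of the interleukin 12 receptor, came first at 0.0756 log2 units. Its values were 0.62 and 0.91 in RORγt-deficient cells with digoxin, 0.67 and 0.77 in RORγt-deficient cells with DMSO, 0.57 and 0.53 in wildtype cells with digoxin, and -0.10 and 0.10 in wildtype cells with DMSO. Sema7a, which encodes a membrane-bound semaphorin, followed at 0.0816, and Kcnj8, which encodes a potassium channel subunit, at 0.0957. The median over all genes was 0.56.

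Genes of related lists were then read with 1 probe set a gene, beside 0.797% of all genes called and a median of 0.00 for RORγt-deficient against wildtype cells in DMSO. Of 10 measured homing and surface genes of naive T cells, 1 rose and 0 fell, with a median of 0.17. Of the 10, 9 were above 0, against 52.2% of all probe sets. At an unadjusted p under 0.05 by limma, 3 of the 10 were higher and 0 lower, against 4% and 5.79% of all genes. The gene that rose by the adjusted p was Ccr7, the chemokine receptor that guides naive cells into lymph nodes. Ccr7 stood at 0.57 and 0.59 in RORγt-deficient cells with DMSO, against 0.05 and -0.05 in wildtype cells with DMSO, a difference of 0.58 ± 0.10 (adjusted p = 0.0405). St8sia1, a sialyltransferase, differed by 0.37 (adjusted p = 0.52) and, under digoxin in wildtype cells, by 0.58 (adjusted p = 0.515). The Ccr7 call was lost without any 1 of the 8 arrays (adjusted p up to 0.33).

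Of 19 measured quiescence and FOXO-linked genes, 2 rose and 0 fell between RORγt-deficient and wildtype cells in DMSO, with a median of 0.23. Of the 19, 17 were above 0, against 52.2% of all probe sets. At an unadjusted p under 0.05 by limma, 5 of the 19 were higher and 0 lower, against 4% and 5.79% of all genes. Slfn2, a Schlafen gene needed for T cell quiescence in mice, stood at 0.77 and 0.97 in RORγt-deficient cells with DMSO, against -0.07 and 0.07 in wildtype cells with DMSO (difference 0.87 ± 0.12, adjusted p = 0.015). Txnip, which restrains glucose uptake, stood at 0.78 and 0.72 in RORγt-deficient cells with DMSO, against -0.11 and 0.11 in wildtype cells with DMSO (difference 0.75 ± 0.12, adjusted p = 0.0233). In wildtype cells under digoxin 0 of the 19 were called by limma, against 0.0989% of all genes, with a median of 0.07, and 2 were higher at an unadjusted p under 0.05, against 3.37% of all genes. The Slfn2 call held in 5 of the 8 fits that leave out 1 array and the Txnip call in 2 of 8. The Slfn2 call was lost without the second RORγt-deficient DMSO array or either wildtype DMSO array, and the Txnip call held only without either wildtype digoxin array.

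Further lists were built around single members. Of 12 TCF and Wnt partners, 0 rose and 1 fell in RORγt-deficient cells with DMSO, with a median of -0.05. The gene was Myb, a transcription factor of blood progenitors, at -1.16 and -1.13 in RORγt-deficient cells with DMSO against -0.22 and 0.22 in wildtype cells with DMSO (difference -1.15 ± 0.19, adjusted p = 0.0341). Tle1, a corepressor, differed by -0.47 (adjusted p = 0.263). The Myb call was lost without any 1 of those 4 arrays (adjusted p up to 0.291). Of 9 genes of interleukin 7 receptor signalling, 0 were called by limma, and the median was 0.11. At an unadjusted p under 0.05, 2 of the 9 were higher, against 4% of all genes. Among them Bcl2, which blocks cell death, differed by 0.27 (adjusted p = 0.451) and Socs1, which dampens cytokine signals, by 0.44 (adjusted p = 0.253).

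Of 9 sphingosine 1-phosphate genes 0 were called in RORγt-deficient against wildtype cells in DMSO, and the median was -0.02. At an unadjusted p under 0.05, 1 of the 9 was lower, against 5.79% of all genes. That gene was S1pr3, a receptor related to S1pr1, at -0.70 (adjusted p = 0.0708). In RORγt-deficient cells with digoxin against wildtype cells with DMSO S1pr3 fell by 0.86 (adjusted p = 0.0243), a call lost without any 1 of those 4 arrays (adjusted p up to 0.228). Sgpl1, which degrades sphingosine 1-phosphate, differed by -0.29 in RORγt-deficient against wildtype cells in DMSO (adjusted p = 0.665), while its other probe set differed by 0.26. Of 8 partners and opponents of BACH2, 0 were called by limma, with a median of -0.03. None of the 8 had an unadjusted p under 0.05, against 4% of all genes higher and 5.79% lower. Mafk, a partner of BACH2, differed by 0.22 (adjusted p = 0.62), and Prdm1, which BACH2 represses, by -0.10 (adjusted p = 0.908). Of 10 insulin-like growth factor genes, 0 rose and 1 fell, with a median of 0.05, and the receptor Igf1r differed by -0.21 (adjusted p = 0.621). The gene that fell was Igfbp7, which encodes another secreted binding protein. It stood at -1.09 and -1.09 in RORγt-deficient cells with DMSO, against -0.01 and 0.01 in wildtype cells with DMSO. With digoxin it stood at -1.60 and -1.86 in RORγt-deficient cells and at -1.39 and -1.62 in wildtype cells.

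Igfbp7 by 1423584_at thus lay in the opposite direction to Igfbp4. Its difference was -1.09 ± 0.13 in RORγt-deficient against wildtype cells in DMSO (adjusted p = 0.00769) and -1.50 ± 0.13 for digoxin against DMSO in wildtype cells (adjusted p = 0.00251). The other 2 Igfbp7 probe sets lay between -0.21 and 0.19 in the first comparison and between -0.24 and 0.17 in the second. The first call was lost without the second RORγt-deficient DMSO array and both calls without either wildtype DMSO array (adjusted p up to 0.105 and 0.0608). With the probe sets averaged neither passed (adjusted p = 0.106 and 0.0739). In RORγt-deficient cells with digoxin against wildtype cells with DMSO, 1423584_at differed by -1.73 ± 0.13 (limma adjusted p = 0.000328). Digoxin against DMSO in RORγt-deficient cells gave -0.64 ± 0.13 (limma unadjusted p = 0.0005), which was not called. The other 2 probe sets lay between -0.20 and 0.16 and between -0.03 and 0.01 in these comparisons.

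**Figure D4:**
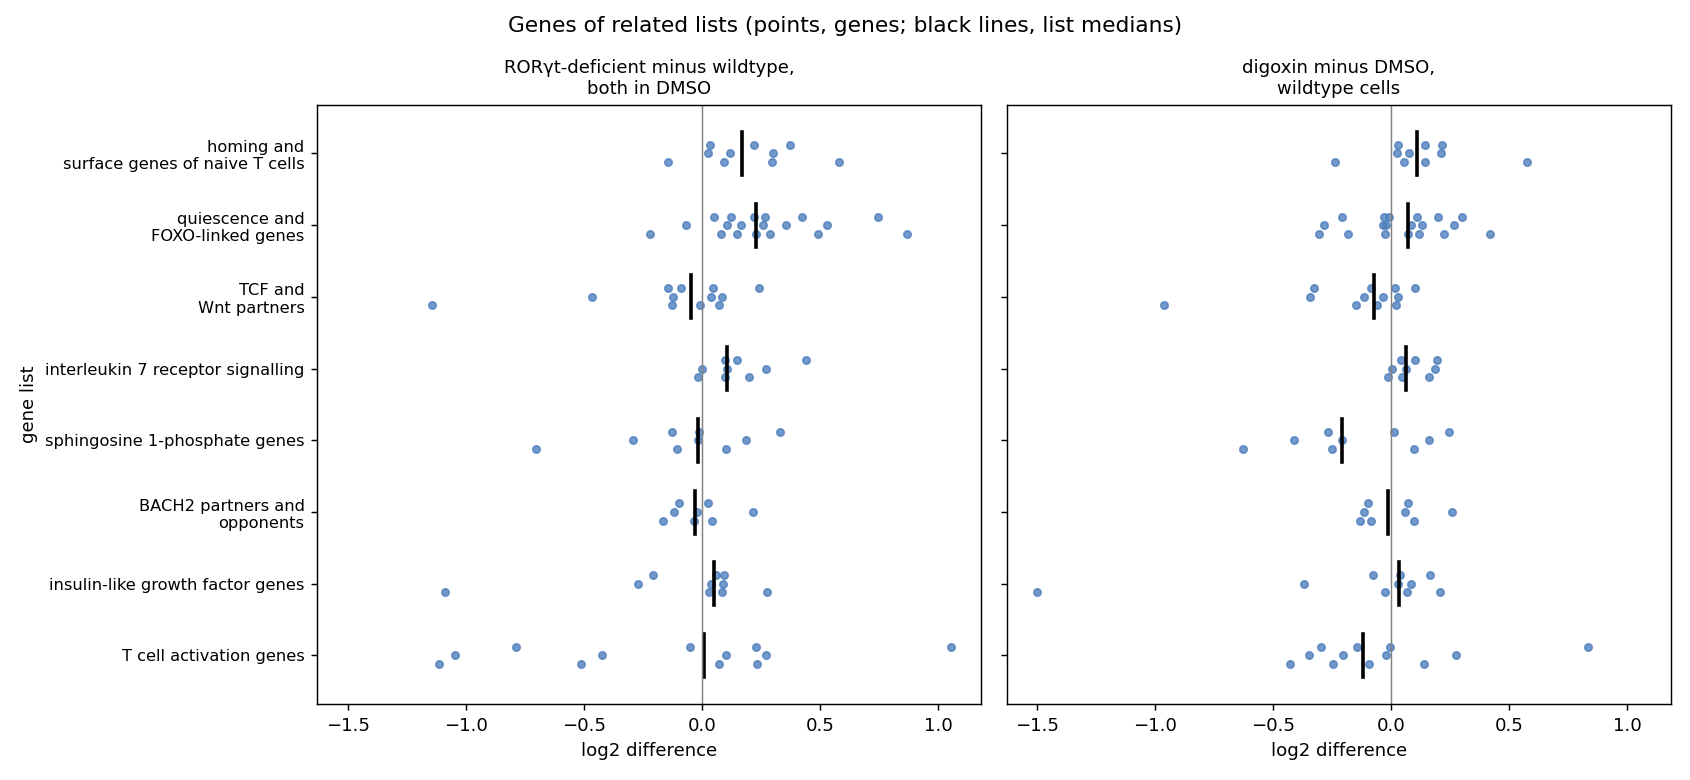
Log2 difference (horizontal axis) for the genes of 8 related lists, with 1 point a gene and a black line at the median of each list. The left panel shows RORγt-deficient minus wildtype cells in DMSO, where the quiescence and FOXO-linked list has a median of 0.23, and the right panel shows digoxin minus DMSO in wildtype cells, where that list has a median of 0.07.

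T cell activation genes were read for contrast, and 1 of 12 rose while 3 fell in RORγt-deficient cells with DMSO. Mki67 and Ccnb2, which mark dividing cells, differed by -1.11 ± 0.14 (adjusted p = 0.0117) and -1.05 ± 0.12 (adjusted p = 0.00769). Slc7a5, a subunit of an amino acid transporter induced on activation, differed by -0.79 ± 0.11 (adjusted p = 0.0191). Slc3a2, the other subunit, differed by -0.51 (adjusted p = 0.0786). In RORγt-deficient cells with digoxin against wildtype cells with DMSO, Slc3a2 differed by -0.56 (limma adjusted p = 0.0414). That call was lost without any 1 of the 8 arrays, with the compared groups alone and after quantile normalization. Back in the comparison of RORγt-deficient with wildtype cells in DMSO, Gzmb, the granule protease granzyme B, differed by 1.05 ± 0.11 (limma adjusted p = 0.00534). Each of these calls was lost without at least 1 single array, Slc7a5 without any 1 of the RORγt-deficient or wildtype DMSO arrays, and the median of the list was 0.01. Under digoxin in wildtype cells Mki67 differed by -0.43 (adjusted p = 0.663) and Gzmb rose by 0.83 ± 0.11 (adjusted p = 0.0409), a call lost without any 1 of the 8 arrays.

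In RORγt-deficient cells, digoxin against DMSO gave 0 calls by limma in each of the 8 lists, where 0.0055% of all genes were called. At an unadjusted p under 0.05, 1 quiescence gene and 1 insulin-like growth factor gene were lower there and 1 TCF partner was higher, against 0.857% of all genes lower and 2.39% higher. List medians there ran between -0.13 for the sphingosine 1-phosphate genes and 0.04 for the BACH2 partners.

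Markers of the cells themselves were also read. The 7 measured T cell markers had a lowest array level of 8 or above, and all 7 were above 0 in RORγt-deficient against wildtype cells in DMSO, from 0.05 to 0.43 with a median of 0.21, and in wildtype cells under digoxin against DMSO, from 0.04 to 0.43 with a median of 0.09. Cd3g, a chain of the T cell receptor complex, was the highest in both (adjusted p = 0.225 and 0.519). By limma 0 of these 7 were called in either comparison, against 0.797% and 0.0989% of all genes. At an unadjusted p under 0.05, 3 and 2 of the 7 were higher, against 4% and 3.37% of all genes. Their shift ran the same way as that of the naive and resting genes, and its part in the result was not tested. Markers of NK cells were in the lowest range, 2 to 4, in all 3 genes measured, B cell markers were in the ranges 2 to 4 and 4 to 8, and CD8 T cell markers were between 4 and 8. Of 6 myeloid markers 2 were in the range 2 to 4 and 4 in the range 4 to 8. Over all the marker lists 0 genes were called in any of the 6 comparisons. At an unadjusted p under 0.05 in RORγt-deficient against wildtype cells in DMSO (4% of all genes higher), 0 of 5 B cell, 0 of 2 CD8, 1 of 3 NK cell, 1 of 6 myeloid and 0 of 2 erythroid markers were higher. Under digoxin in wildtype cells against DMSO (3.37% of all genes higher), 1 of 5 B cell, 0 of 2 CD8, 1 of 3 NK cell, 2 of 6 myeloid and 0 of 2 erythroid markers were higher, and all 5 B cell markers were above 0. In RORγt-deficient cells with digoxin against wildtype cells with DMSO (7.11% of all genes higher), 1 of 5 B cell, 0 of 2 CD8, 1 of 3 NK cell, 3 of 6 myeloid and 1 of 2 erythroid markers were higher. The myeloid median there was 0.32, against 0.03 for all genes. These shifts ran the same way as those of Igfbp4, Il7r and Klf2, and their part in the results was not tested.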

How the data were processed

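Total RNA of 8 samples was hybridised to Affymetrix Mouse Genome 430 2.0 arrays. Per the submitters' processing notes, intensities were summarised with RMA, and the series' design text names GeneSpring GX 11.5. The authors' deposited table holds 45101 probe sets as log2 values, in which the 2 wildtype DMSO arrays sum to 0 within 1e-06, so each value is a difference from their mean; no label records this step. After 64 control probe sets were left out, limma 3.58.1 (R 4.3.3) fitted 4 group means to 45037 probe sets on all 8 arrays (4 residual degrees of freedom, 5.82 from the prior). Adjusted p-values are Benjamini-Hochberg over all probe sets within a comparison, called under 0.05. The median SE of a group difference was 0.13. Only probe sets annotated with 1 gene symbol were named (34945). From each list the text names genes called in any of 6 comparisons and the 2 with the smallest unadjusted p. A gene with several probe sets is represented in lists by suffix order (_at, _a_at, _s_at, _x_at) and then identifier. The members and the lists were chosen with earlier results of these data known. The fit was tested on simulated data with independent noise on each array. That simulation did not cover replicate differences that are correlated between groups. The number of arrays limits the precision.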

Additional observations from a re-analysis of the deposited data

How the results depend on the processing

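The member calls rested on Igfbp4 1421991_a_at. For RORγt-deficient against wildtype cells in DMSO the count of called member probe sets was 1, and it was 0 with the probe sets of a gene averaged, with a fit on the compared groups alone (adjusted p = 0.119) and after quantile normalization (log2 difference 0.55, adjusted p = 0.504). For RORγt-deficient cells with digoxin against wildtype cells with DMSO it was 1, and it was 0 with averaged probe sets and after quantile normalization, and 2 with array weights, where Satb1 1436182_at passed (0.57, adjusted p = 0.0479). Leaving out 1 array gave counts of 0 to 1 in both comparisons. The other 4 comparisons had 0 members called in every setting run. After quantile normalization all 9 calls among list genes in the first comparison were lost as well, and with the compared groups alone 5 of the 9 were lost (Ccr7, Txnip, Slfn2, Myb and Slc7a5). The Gzmb call under digoxin in wildtype cells was lost in both settings. The cause of these changes was not tested. Of 2232 member values recomputed, 15 lost their call and 1 gained one, and 99 changed sign where neither value had an unadjusted p under 0.05. The whole array held 275 calls for RORγt-deficient against wildtype cells in DMSO, 5 after quantile normalization, 81 with only the compared groups, and 21 to 318 with 1 array left out. For digoxin in wildtype cells it held 28, with 5, 15 and 3 to 25 in the same settings. For RORγt-deficient cells with digoxin against wildtype cells with DMSO it held 424, with 6, 661 and 21 to 476 in the same settings, and 716 with array weights. The labels state no pairing by replicate number. With the number as a replicate block the member counts were 1, 0, 0, 0, 0 and 1 and the Ccr7 call was lost. The difference within a group, array 2 minus array 1, was correlated between groups over all probe sets. The correlation was 0.32, 0.30 and 0.46 among the 3 groups other than wildtype DMSO. Between those groups and wildtype DMSO it was -0.13 to -0.24. With 2 arrays a group, a miss of the threshold does not show that values were equal.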
